A study of Mus musculus with 49 samples.

Results

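Mitochondrial fatty acid oxidation was followed through 10 genes, chosen by name from the 24495 genes of the deposited table: Cpt1a, Cpt1c and Cpt2 of the carnitine shuttle, the acyl-CoA dehydrogenases Acadvl, Acadl, Acadm and Acads, both subunits of the trifunctional protein, Hadha and Hadhb, and Etfdh. They were measured in 49 libraries of poly(A) RNA from mouse frontal cortex. All mice were on a high fat diet. The libraries labelled AKO (amylin knockout; 10) came from mice with 4 months of the diet. Mice with a conditional human amylin transgene had 4 months of the diet and received tamoxifen (10) or vehicle (10), with tissue taken 2 months after injection. WT mice had 4 months (10) or 2 months (9) of the diet. Amylin is a hormone that pancreatic beta cells release with insulin. The sources used here name neither the promoter behind the transgene nor the Cre driver, strain, sex or age, and no group on another diet was analysed here.

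Iapp, the gene for mouse amylin, had 36 to 116 reads in each library labelled AKO, against 0 reads in every WT library of either diet time. Since a knockout should lower this gene, these libraries are named by their label alone, and each direction given for them rests on that label. Depth was 29.2 to 75.6 M reads per library (M, 1e6 reads), and the least expressed of the 10 genes, Cpt2, still had 118 to 404 reads. All 10 genes passed the filter on low reads in every comparison. Markers of excitatory neurons, astrocytes and myelin were present in every library. The 3 libraries with the lowest summed level of 8 cortical excitatory neuron markers were set apart after seeing the data. Replicate 9 of the tamoxifen group (116340 normalised reads) and replicate 3 of the vehicle group (118355) lay far from the rest, and replicate 1 of the vehicle group (170841) was closer to the other 46, which ran from 184182 to 291908. The same 3 had the highest mean level of olfactory bulb markers. These summed to 19449 normalised reads in tamoxifen replicate 9, 36327 in vehicle replicate 1 and 53487 in vehicle replicate 3. They are called the libraries that stood apart, and results that rest on them are given with and without them.

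Fatty acids enter the mitochondrion as carnitine esters. CPT1 makes the ester at the outer membrane and is held back by malonyl-CoA, and CPT2 turns it back into acyl-CoA inside. An acyl-CoA dehydrogenase matched to chain length then opens each turn of beta-oxidation, the trifunctional protein carries out the remaining steps on long chains, and ETF with its dehydrogenase (Etfdh) hands the electrons to ubiquinone. In brain, astrocytes are known for most of this oxidation, while CPT1C is a neuronal isoform of the endoplasmic reticulum with little transferase activity.

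The promoters of 4 of the genes are shown because the genes differ in what follows: Hadha and Hadhb share one, Acadm was the gene that passed a test, and Cpt1a and Cpt1c are the liver-type and neuronal isoforms. All 10 genes matched a RefSeq promoter (GRCm38.p6, 250 bases before to 50 after the start of transcription). Hadha and Hadhb lie head to head on chromosome 5, at chr5:30118304-30155162 (minus strand) and chr5:30155248-30184593 (plus strand) in GENCODE M21. Their RefSeq starts, 30154980 and 30155253, are 272 bases apart. Both windows hold the same 228 bases, chr5:30155003-30155230, which are in capitals in the Hadhb window. In the other windows the capitals mark the nuclear receptor half-site AGGTCA, read on either strand.
Hadhb, chr5:30155003-30155302, plus strand: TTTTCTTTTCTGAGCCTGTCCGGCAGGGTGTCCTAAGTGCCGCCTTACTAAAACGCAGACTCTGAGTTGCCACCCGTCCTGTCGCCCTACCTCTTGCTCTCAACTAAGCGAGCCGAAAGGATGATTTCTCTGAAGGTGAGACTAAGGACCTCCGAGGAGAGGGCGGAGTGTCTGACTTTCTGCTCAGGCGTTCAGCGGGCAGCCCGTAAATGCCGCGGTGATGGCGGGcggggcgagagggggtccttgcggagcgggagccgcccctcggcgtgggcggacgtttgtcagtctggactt
Acadm, chr3:153944594-153944893, minus strand: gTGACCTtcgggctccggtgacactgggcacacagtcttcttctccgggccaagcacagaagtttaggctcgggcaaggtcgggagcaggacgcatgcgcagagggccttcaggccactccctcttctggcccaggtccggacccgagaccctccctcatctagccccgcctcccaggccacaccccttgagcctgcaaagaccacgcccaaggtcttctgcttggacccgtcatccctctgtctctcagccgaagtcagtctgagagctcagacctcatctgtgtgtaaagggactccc
Cpt1a, chr19:3323051-3323350, plus strand: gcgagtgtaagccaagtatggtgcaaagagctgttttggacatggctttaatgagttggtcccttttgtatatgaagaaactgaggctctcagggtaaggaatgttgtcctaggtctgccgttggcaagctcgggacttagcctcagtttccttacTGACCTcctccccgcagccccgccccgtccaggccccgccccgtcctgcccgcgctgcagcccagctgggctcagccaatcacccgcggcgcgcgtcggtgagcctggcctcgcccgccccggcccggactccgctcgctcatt
Cpt1c, chr7:44974802-44975101, minus strand: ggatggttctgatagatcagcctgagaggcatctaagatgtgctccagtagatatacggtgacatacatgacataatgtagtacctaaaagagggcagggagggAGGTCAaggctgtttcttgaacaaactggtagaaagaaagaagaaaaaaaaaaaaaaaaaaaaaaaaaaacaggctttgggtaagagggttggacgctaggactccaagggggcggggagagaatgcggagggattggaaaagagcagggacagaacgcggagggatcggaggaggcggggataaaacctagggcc
The half-site was found in 4 of the 10 promoters (Cpt1a, Cpt1c, Acadvl and Acadm) and in 16.3% of 32851 mouse promoters of the same length. A direct repeat of it spaced by 1 base, AGGTCANAGGTCA with up to 2 mismatches, the form that PPAR receptors are known to bind, was found in 0 of 10 and in 3.86% of all. The NRF1 site GCGCNTGCGC was found in 1, Etfdh, and in 4.60% of all. GC content was 62.3% in the Cpt1a window and 47.3% in the Cpt1c window.

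Per length of exon, Cpt1c and Hadhb stood highest and Cpt2 lowest. In reads per kilobase of exon and 1e6 reads, the mean over 49 libraries was 33.1 ± 2.2 for Cpt1c and 29.5 ± 3.8 for Hadhb (SD), and Cpt1c was above Hadhb in 36 of the 49. On the same scale Acadvl was at 22.9, Acadl at 21.5, Acadm at 18.8, Hadha at 15.9, Etfdh at 13.8, Cpt1a at 7.91, Acads at 4.17 and Cpt2 at 2.19. Neighbours in this order kept their places in at least 46 of 49 libraries, except Cpt1c above Hadhb and Acadvl above Acadl (41 of 49). The neuronal isoform Cpt1c was 4.22 ± 0.49 times as high per length as Cpt1a, the isoform that sets the rate of fatty acid entry (SD, n = 49). The ratio averaged 4.32 ± 0.40 in the libraries labelled AKO, 4.45 ± 0.60 with tamoxifen, 3.99 ± 0.69 with vehicle, 4.20 ± 0.30 in 4-month WT and 4.11 ± 0.24 in 2-month WT. Dvl2, on the other strand, overlaps 976 exon bases of Acadvl, and an antisense RNA overlaps 366 of those of Cpt1c. The kit keeps strand, but how reads were counted is not given, so the levels of these genes may hold reads of their neighbours.

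**Figure D1:**
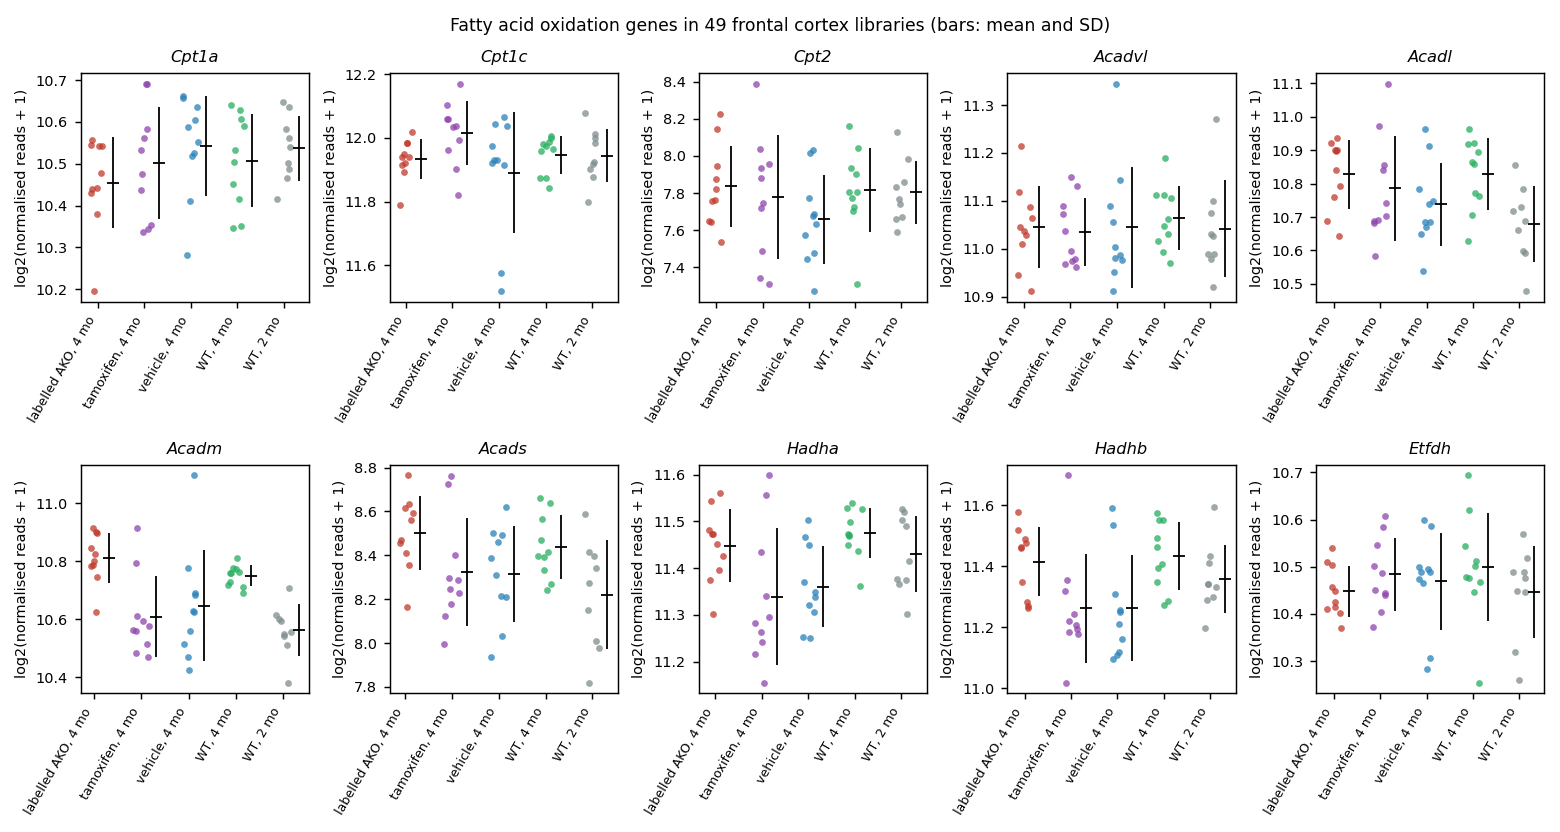
Level of each of the 10 genes, log2(normalised reads + 1), in 49 libraries by group; each point is 1 library, and the bars are mean and SD. Acadm lay between 10.69 and 10.81 in WT at 4 months, against 10.38 to 10.71 in WT at 2 months; for all 10 genes the ranges of compared groups overlap.

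The comparison of the libraries labelled AKO with WT at 4 months asks what the amylin genotype changes on the diet. None of the 10 genes passed the test (limma-trend, adjusted p at most 0.05 over 15185 genes), and 0 had an unadjusted p under 0.05 (limma-voom called 0 as well). Over all genes 0.790% were called, and 14% had an unadjusted p under 0.05. In the carnitine shuttle, Cpt1a averaged 10.46 ± 0.11 in the AKO-labelled group and 10.51 ± 0.11 in WT (SD, n = 10 each), on the log2(normalised reads + 1) scale used for all levels from here. Cpt1c averaged 11.93 ± 0.06 in the AKO-labelled group and 11.95 ± 0.06 in WT, a difference of -0.01 (95% interval -0.08 to 0.05). Cpt2 averaged 7.84 ± 0.22 in the AKO-labelled group and 7.82 ± 0.23 in WT. All 3 ranges overlapped.

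Among the dehydrogenases, Acadm, for medium chains, ranged from 10.62 to 10.91 (median 10.81) in the libraries labelled AKO, against 10.69 to 10.81 (median 10.76) in WT at 4 months. The libraries labelled AKO spread more widely, and 5 of 10 were above the highest WT library. The difference was 0.06 (95% interval -0.01 to 0.13, adjusted p = 0.42). Acadl, for long chains, averaged 10.83 ± 0.10 in the AKO-labelled group and 10.83 ± 0.11 in WT, and the interval of its difference ran from -0.10 to 0.10. The intervals of the trifunctional subunits ran from -0.09 to 0.04 for Hadha and from -0.12 to 0.08 for Hadhb. Etfdh averaged 10.45 ± 0.05 in the AKO-labelled group and 10.50 ± 0.12 in WT. The median change of the 10 genes was -0.02, beside 0.005 over all genes tested.

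Of 78 other listed genes of fatty acid and ketone metabolism 76 were tested, and 0 rose and 1 fell. That gene was Pdk4, a kinase that turns off pyruvate dehydrogenase and a known PPAR target. It ranged from 8.36 to 9.03 in the libraries labelled AKO, against 8.83 to 9.63 in WT, and differed by -0.37 (SE 0.09, adjusted p = 0.044). The call was lost in 15 of the 20 fits that left out 1 library, with limma-voom, with no filter on low reads, with all 49 libraries in 1 model, with the myelin marker level as a covariate, with a replicate block, against only WT replicates 21 to 25, and without the libraries labelled AKO numbered 14 and 19. Beside it, 2 of 10 myelin markers (Mobp and Cldn11) and 1 of 12 astrocyte markers (Gjb6) fell. All 10 myelin markers were lower, with a median of -0.19. Their sum was at 133420 to 187712 in the libraries labelled AKO, against 167113 to 204601 in WT. All 9 endothelial markers were lower (median -0.15), and 7 of 9 microglial markers were higher (0.06), of which 0 passed. Of the 12 astrocyte markers 9 were lower and 3 higher. The part of these markers in the change of Pdk4 was not tested beyond the covariates. In bulk tissue, fewer cells of a type and less RNA per cell cannot be told apart.

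Tamoxifen against vehicle in the human amylin mice asks what tamoxifen, given to switch the transgene on, changes. Whether the transgene was on in these libraries was not examined here. None of the 10 genes was called, and 0 had an unadjusted p under 0.05. Over all 15270 genes 0% were called (limma-trend; 503 had an unadjusted p under 0.05, and limma-voom also called 0). The largest differences were those of Cpt1c and Cpt2. Cpt1c ranged from 11.82 to 12.17 (median 12.04) with tamoxifen, against 11.52 to 12.06 (median 11.93) with vehicle. The low end of the vehicle group was replicates 1 and 3, which are 2 of the 3 libraries that stood apart. The Cpt1c difference was 0.12 (SE 0.07) with all libraries and 0.06 (SE 0.04) without the 3. Cpt2 differed by 0.12, with an interval from -0.14 to 0.39. For Hadhb and Hadha the intervals ran from -0.16 to 0.15 and from -0.13 to 0.09. A group given tamoxifen without the transgene was not analysed here, so drug and transgene cannot be told apart. The change in the libraries labelled AKO less the change with tamoxifen was also tested in 1 model. None of the 10 genes passed, with 0.0383% of 15665 genes called, and the nearest was Cpt1c at -0.14 (SE 0.07, adjusted p = 0.91).

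**Figure D2:**
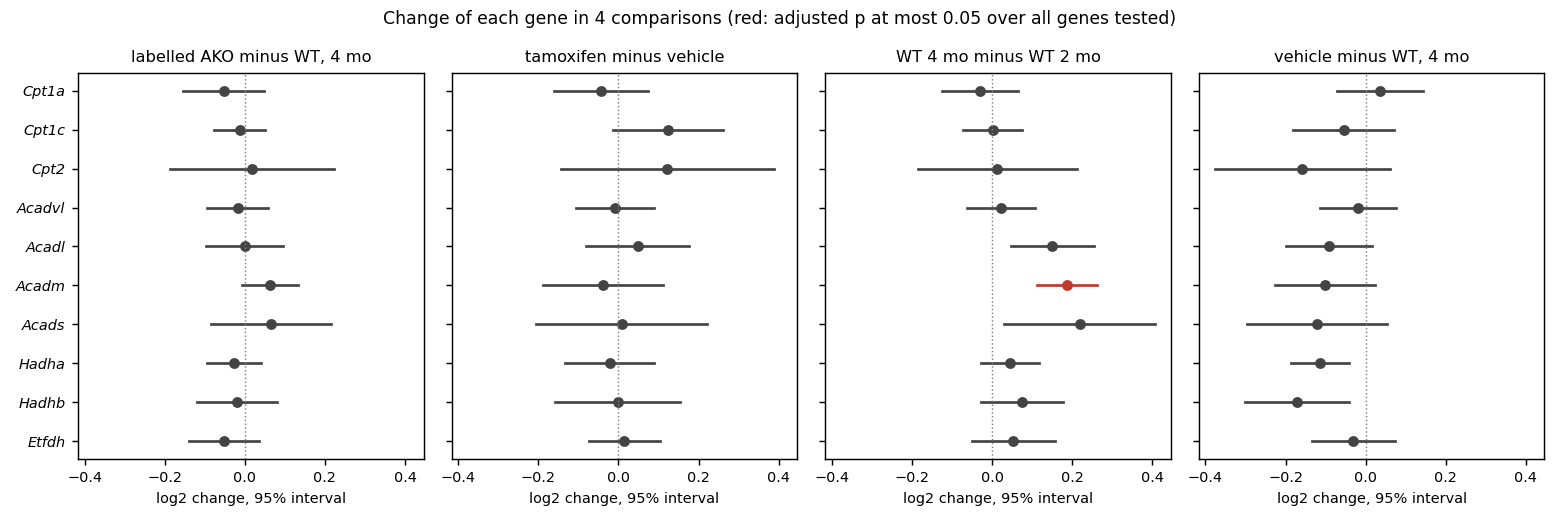
Log2 change of each gene (point) with its 95% interval (line) in 4 comparisons; red marks the call. Acadm in WT at 4 months against 2 months, at 0.19, is the single call. Intervals also leave out 0 for Acadl and Acads above 0 in that comparison, and for Hadha and Hadhb below 0 in vehicle against WT.

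WT mice with 4 months of the diet against those with 2 months gave the single call among the 10 genes. Acadm, the medium-chain dehydrogenase, rose by 0.19 on the log2 scale, 1.14-fold (SE 0.04, adjusted p = 0.0050). It was called as 1 of 10 genes, beside 8.77% of 15159 genes over all. Acadm ranged from 10.69 to 10.81 (median 10.76) in WT at 4 months, against 10.38 to 10.71 (median 10.56) in WT at 2 months. The groups touched at 1 library: 9 of the 10 libraries at 4 months were above the highest at 2 months. The call held when any 1 library was left out (adjusted p 0.00087 to 0.012). It was lost with the astrocyte marker level as a covariate (0.15, adjusted p = 0.47) and with the excitatory neuron marker level as one (0.14, adjusted p = 0.13). Calls over all genes fell in both fits as well.

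The dehydrogenases for neighbouring chain lengths were higher too without passing the test. Acadl ranged from 10.63 to 10.96 (median 10.86) at 4 months, against 10.48 to 10.86 (median 10.69) at 2 months, and 6 of 10 libraries were above the highest at 2 months. Its difference was 0.15 (SE 0.05, adjusted p = 0.061), and it passed without WT 4-month replicate 11 or 22 or without WT 2-month replicate 37. Acads, for short chains, ranged from 8.24 to 8.66 (median 8.41) at 4 months, against 7.82 to 8.59 (median 8.27) at 2 months. The groups overlapped, and the difference was 0.22 (SE 0.09, adjusted p = 0.12). Acadvl, for very long chains, differed by 0.02 (95% interval -0.06 to 0.11).

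In the carnitine shuttle the intervals of all 3 genes held 0. Cpt1a averaged 10.51 ± 0.11 at 4 months and 10.54 ± 0.08 at 2 months, a difference of -0.03 (95% interval -0.13 to 0.07). Cpt1c averaged 11.95 ± 0.06 at 4 months and 11.94 ± 0.08 at 2 months, with an interval from -0.07 to 0.08. Cpt2 averaged 7.82 ± 0.23 at 4 months and 7.80 ± 0.17 at 2 months, with an interval from -0.18 to 0.21. The trifunctional subunits differed by 0.04 (Hadha) and 0.07 (Hadhb), with intervals that held 0. In all, 9 of the 10 genes were higher at 4 months, with a median of 0.05, beside 0.003 over all genes tested. By limma-trend 3 of the 10 (Acadm, Acadl and Acads) had an unadjusted p under 0.05, beside 27.3% of all genes.

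Of the 76 pathway genes outside the 10, 9 rose and 1 fell in the same comparison, 13.2% beside 8.77% over all genes, and 28 of the 76 were lower. Of the 12 other enzymes of mitochondrial beta-oxidation 6 rose and 0 fell, and all 12 were higher, with a median of 0.15. The 5 with the smallest p were Echs1 (0.24, SE 0.05), which hydrates short enoyl-CoA, Eci1 (0.31, SE 0.07), an enoyl-CoA isomerase for unsaturated chains, Hadh (0.29, SE 0.07), which oxidises hydroxyacyl-CoA, Acadsb (0.15, SE 0.04), for short branched chains, and Decr1 (0.17, SE 0.05), a reductase for unsaturated chains. Eci1 averaged 9.63 ± 0.11 at 4 months and 9.32 ± 0.18 at 2 months, with 4 of 10 libraries above the highest at 2 months. Mettl20, which methylates the beta subunit of ETF, rose by 0.47 (SE 0.13), and 7 of 10 libraries were above the highest at 2 months. Of 4 ketone body enzymes 1 rose, Oxct1, which starts ketone use (0.10, SE 0.03). The desaturase Scd2 rose (0.11, SE 0.04), and Slc27a4, a fatty acid transporter, fell by 0.17 (SE 0.04). None of the 9 listed PPAR receptors and co-regulators passed. All these genes passed limma-trend at adjusted p 0.05 over all genes tested.

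**Figure D3:**
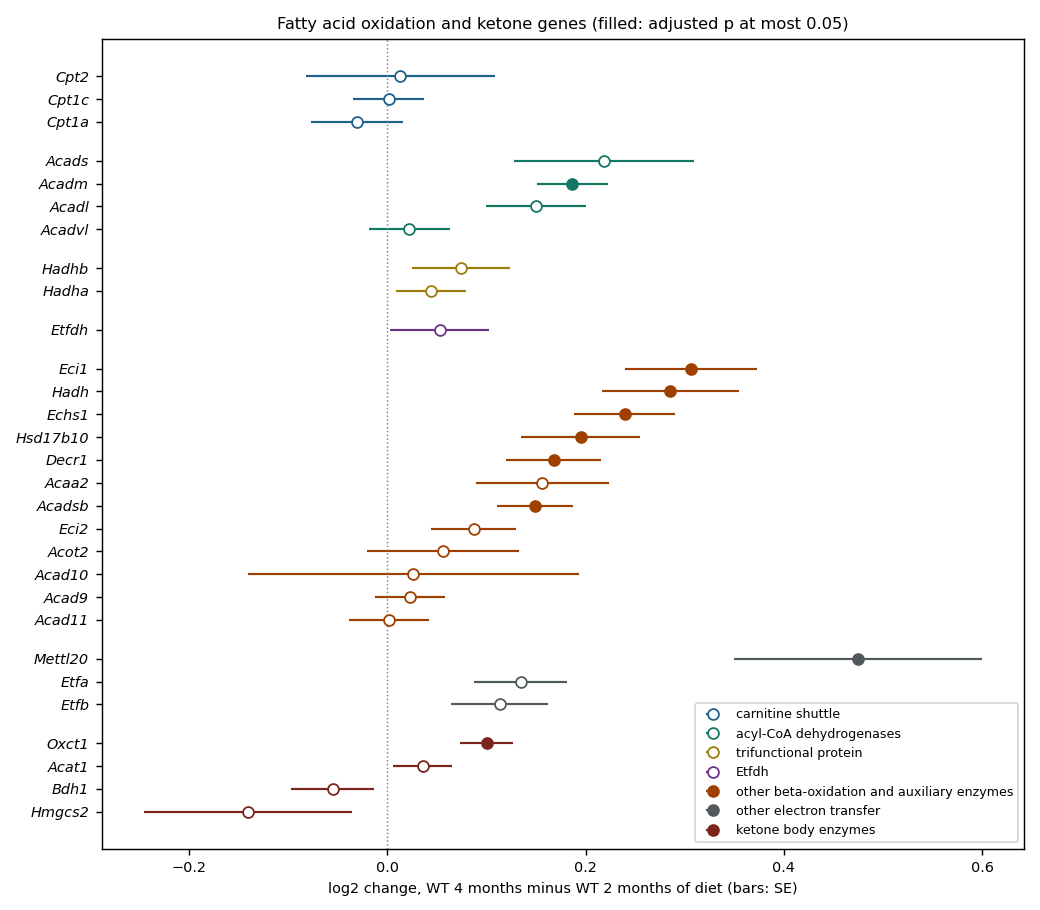
Log2 change of fatty acid oxidation and ketone genes between WT at 4 and at 2 months of diet (points, with SE bars), grouped by role; filled points passed the test. The filled points are Acadm at 0.19, 6 of 12 other beta-oxidation enzymes, Mettl20 at 0.47 and Oxct1, while the carnitine shuttle genes lie near 0.

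Cell type markers moved beside these genes. At 4 months 6 of 12 astrocyte markers, 7 of 9 microglial, 3 of 9 endothelial and 1 of 10 myelin markers rose, and 2 of 8 excitatory neuron markers (Neurod2 and Slc17a7) fell. All 5 olfactory bulb markers (median 1.07), all 7 choroid plexus and ependyma markers tested (0.65) and all 10 striatal markers (0.51) were higher, and 0 passed. Whether the pieces of tissue differed between the groups was not tested. Summed astrocyte markers were at 177517 to 202045 (median 191106) at 4 months, against 167791 to 187796 (median 180053) at 2 months. Summed excitatory neuron markers were at 198413 to 251618 (median 213791) at 4 months, against 184182 to 278861 (median 240608) at 2 months. With the astrocyte, the myelin or the excitatory neuron level as a covariate, 0 of the 76 other pathway genes rose, and Acadm passed with the myelin level alone. Calls over all genes fell in these fits as well, from 1330 to 2 with the astrocyte level. The loss of calls was therefore not particular to the pathway genes. Longer diet and possible differences in age or cohort, neither of which is given, cannot be told apart in this comparison. Leaving out 1 library gave 6 to 16 rises of pathway genes and 772 to 2846 calls over all genes. Rises were lowest without WT 4-month replicate 12, 15, 23 or 25 or WT 2-month replicate 32, 33 or 34. They were highest without WT 2-month replicate 37 (16) or WT 4-month replicate 11 (14). Calls over all genes were also highest without WT 2-month replicate 37, so the range of rises is not particular to the pathway.

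Vehicle-treated human amylin mice against WT, both at 4 months, differ in the transgene, in the injection and possibly in the cohort, which cannot be told apart. This comparison and the preceding one share the WT libraries at 4 months, as does that of the libraries labelled AKO. None of the 10 genes passed with all libraries, where 6.20% of 15129 genes were called by limma-trend, and limma-voom called 1 (Hadha). By limma-trend 2 of the 10 had an unadjusted p under 0.05, beside 21.1% of all genes, a share close to theirs. Those 2 were the subunits of the trifunctional protein. Hadha, its alpha subunit, ranged from 11.25 to 11.50 (median 11.34) with vehicle, against 11.36 to 11.54 (median 11.47) in WT. Hadhb, the thiolase subunit, ranged from 11.10 to 11.59 (median 11.23) with vehicle, against 11.27 to 11.58 (median 11.43) in WT. Most vehicle libraries were low: 6 of 10 for Hadha and 7 of 10 for Hadhb were below the lowest WT library. Hadha differed by -0.11 (SE 0.03, adjusted p = 0.054) and Hadhb by -0.17 (SE 0.06, adjusted p = 0.11).

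The high end of the vehicle group was made up of the libraries that stood apart. Without vehicle replicates 1 and 3, 3 of the 10 genes fell, where 18.1% of all 15243 genes were called: Hadhb by 0.25 (SE 0.05, adjusted p = 0.0012), Acadm by 0.18 (SE 0.04, adjusted p = 0.0034) and Hadha by 0.15 (SE 0.03, adjusted p = 0.0041). With all libraries the share over all genes was 6.20%, so calls were more frequent among all genes as well. Acadm with vehicle ranged from 10.42 to 11.10 (median 10.63), against 10.69 to 10.81 in WT, and its highest value was that of vehicle replicate 3; 8 of 10 vehicle libraries were below the lowest WT library. Acadl, Acads, Cpt2 and Etfdh had negative differences that did not pass with or without those libraries. Cpt1a differed by 0.04 (95% interval -0.07 to 0.14). In all, 9 of 10 genes were lower with vehicle, with a median of -0.10, beside -0.0003 over all genes tested.

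Of the other 76 pathway genes, 1 rose and 5 fell with vehicle, 7.89% beside 6.20% over all genes. The peroxisomal oxidase Acox3 rose by 0.26 (SE 0.05), averaging 10.57 ± 0.13 with vehicle and 10.30 ± 0.09 in WT. Decr1 fell by 0.20 (SE 0.05), Hsd17b10, a mitochondrial hydroxyacyl-CoA dehydrogenase, by 0.17 (SE 0.05), Amacr, a racemase for branched chains, by 0.20 (SE 0.06), Acsl6, which activates long polyunsaturated chains, by 0.09 (SE 0.03) and Pdk4 by 0.46 (SE 0.10). Of the 20 fits that left out 1 library, Acox3, Decr1 and Pdk4 passed in all 20, Hsd17b10 in 12, Amacr in 6 and Acsl6 in 3. These fits gave 2 to 7 falls: 7 without vehicle replicate 3, 2 without vehicle replicate 40 or WT replicate 13, 14, 23, 24 or 25, and 3 without vehicle replicate 4, 5, 10, 39 or 41 or WT replicate 12, 15 or 22. Over all genes these fits called 651 to 1494, also highest without vehicle replicate 3. Without vehicle replicates 1 and 3, 4 rose and 14 fell, where 18.1% of all genes were called. Myelin markers fell beside them, 10 of 10, with a median of -0.63, and their sum was at 85457 to 191858 with vehicle, against 167113 to 204601 in WT. Of the other markers, 2 microglial (Fcrls and C1qb) and 2 endothelial (Tek and Pecam1) fell, and 1 astrocyte (Fgfr3) and 1 excitatory neuron marker (Cux2) rose. As a list the astrocyte markers went the other way: 10 of 12 were lower and 2 higher, with a median of -0.10. Of the 8 excitatory neuron markers 6 were higher and 2 lower, with a median of 0.05. All 10 striatal markers were lower, with a median of -0.85, and 0 passed. The part of these markers in the changes was not tested beyond the covariates. With the astrocyte level as a covariate 5 pathway genes rose and 1 fell, and with the myelin level 0 pathway genes and 3 genes in all were called. The share over all genes with the astrocyte level is not given here, so those counts are not a result about the pathway. With the excitatory neuron level as a covariate Hadha (-0.10, adjusted p = 0.018) and Hadhb (-0.14, adjusted p = 0.013) passed. The share of all genes called was also above 6.20% in that fit, so these calls are not particular to the 2 genes.

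Within groups, most of the 10 genes varied together from library to library. After group means were removed, all 36 pairs without Cpt1c had a positive Pearson's r in 49 libraries and 29 passed (permutation test within groups, adjusted over 45 pairs). In the 46 libraries without the 3 that stood apart, 35 of 36 were positive and 19 passed. Pairs of other genes were not correlated, so these counts have no share over all genes beside them. Acadl and Hadhb formed the closest pair in the 46, with r = 0.74 and Spearman's rho = 0.74 (adjusted permutation p = 0.00023 and 0.00045), and r = 0.71 without the 2 libraries farthest from the median. Hadha and Hadhb, which share the promoter shown above, had r = 0.51 and rho = 0.47 in the 46 (adjusted permutation p = 0.0030 and 0.0082), and r = 0.42 without the 2 farthest. They were not the closest pair: Hadhb had a higher r with Acadl, Acadvl (0.68) and Acadm (0.56). Within single groups over all libraries, the r of Acadl and Hadhb was between 0.51 and 0.94. The lowest r of Hadha and Hadhb was 0.05, in WT at 2 months.

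Cpt1c was the exception, and its apparent opposition to the others rested on the libraries that stood apart. In 49 libraries its r was negative with all 9 other genes and 7 passed by r, down to -0.63 with Hadhb (rho = -0.48, adjusted permutation p = 0.00030 and 0.0024). By rho the pair with Hadhb alone passed, and the other pairs had an adjusted permutation p of 0.077 to 0.66. In the 46 libraries the 9 values were between -0.27 and -0.0004, and 0 passed. In vehicle replicates 1 and 3 Cpt1c was at 11.57 and 11.52, its lowest values in the series, and Hadhb at 11.53 and 11.59.

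**Figure D4:**
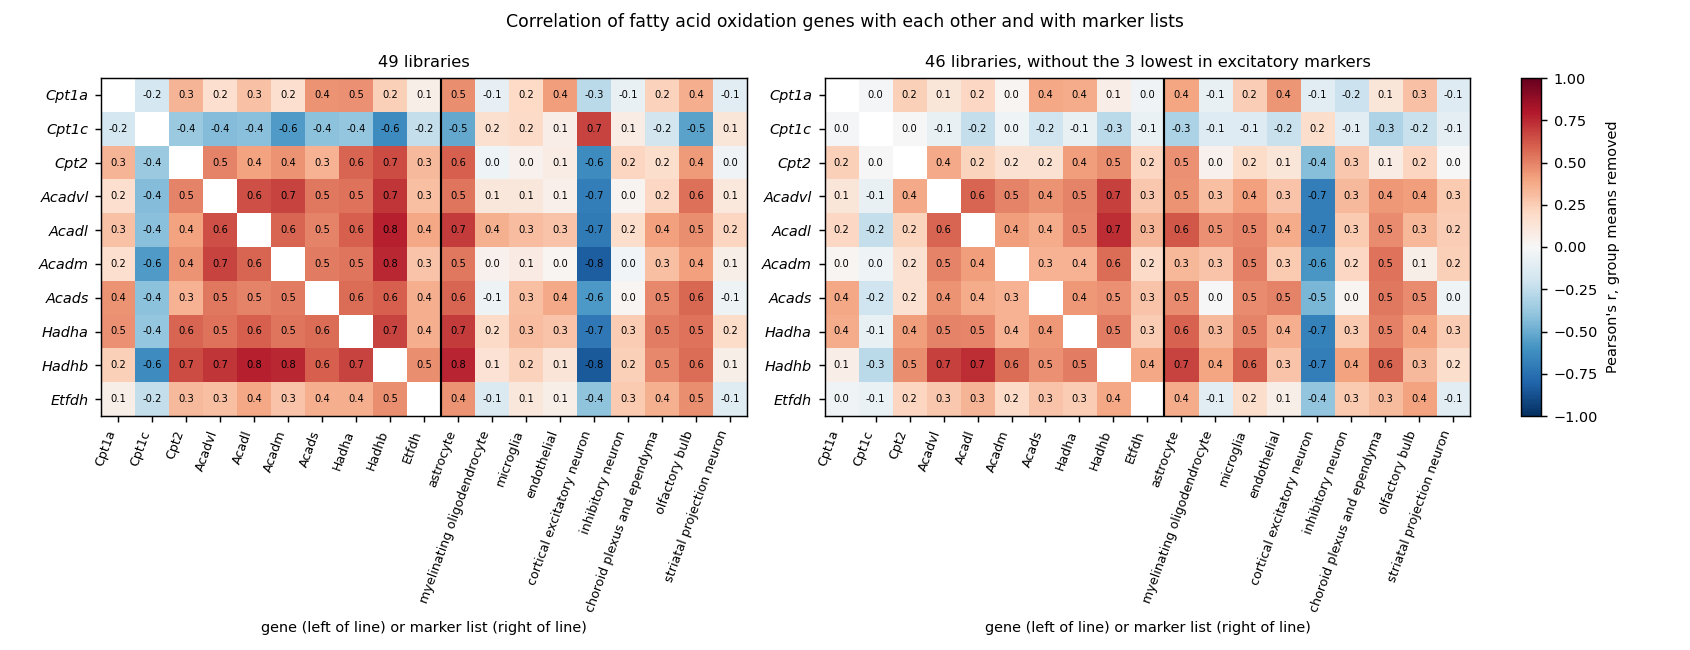
Pearson's r between the 10 genes, and between each gene and the mean level of 9 marker lists, after group means were removed, in 49 libraries (left) and in the 46 without the 3 lowest in excitatory neuron markers (right). Acadl and Hadhb have the highest r between genes in both panels (0.78 and 0.74), and the row of Cpt1c, negative with all 9 other genes at left, fades at right.

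The 9 genes other than Cpt1c varied with the astrocyte markers and opposite to the excitatory neuron markers, with and without the libraries that stood apart. In the 46 libraries all 9 had a positive r with the astrocyte markers (0.33 to 0.68) and 8 passed (permutation test within groups, adjusted over 90 pairs of gene and list). All 9 had a negative r with the excitatory neuron markers (-0.70 to -0.11) and 8 passed, Cpt1a being the one that did not. In the 49 libraries 9 of 9 passed with the astrocyte markers and 8 of 9 with the excitatory neuron markers, in the same directions. Hadhb had r = -0.69 and rho = -0.69 (adjusted permutation p = 0.00018 and 0.00023), and r = -0.67 without the 2 farthest libraries. In 49 libraries its r was -0.84, and it was between -0.92 and -0.80 within each of the 5 groups. Of the other lists, the counts for microglial and olfactory bulb markers depended more on the libraries that stood apart. In the 46 libraries the median r of the 9 genes was 0.46 with astrocyte markers. It was 0.47 with microglial markers and 0.47 with choroid plexus and ependyma markers. With microglial markers 6 of the 9 genes passed in 46 libraries and 0 in 49, where r was 0.04 to 0.31. With olfactory bulb markers 4 passed in 46 and 9 in 49, and with choroid plexus and ependyma markers 6 in 46 and 5 in 49, all with a positive r. With endothelial markers 4 passed in 46 and 2 in 49. With myelin markers 2 passed in 46, where 3 of 9 had a negative r, and 0 in 49. With the inhibitory neuron markers 1 passed in 46 and 0 in 49, and with the striatal markers 0 passed in either. Cpt1c, the neuronal isoform, had r = 0.67 with the excitatory neuron markers in 49 libraries (rho = 0.44, adjusted permutation p = 0.0013 and 0.012) and r = 0.18 in 46 (rho = 0.20, adjusted permutation p = 0.37 and 0.29). These relations are between libraries of bulk tissue, and their source was not tested.

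**Figure D5:**
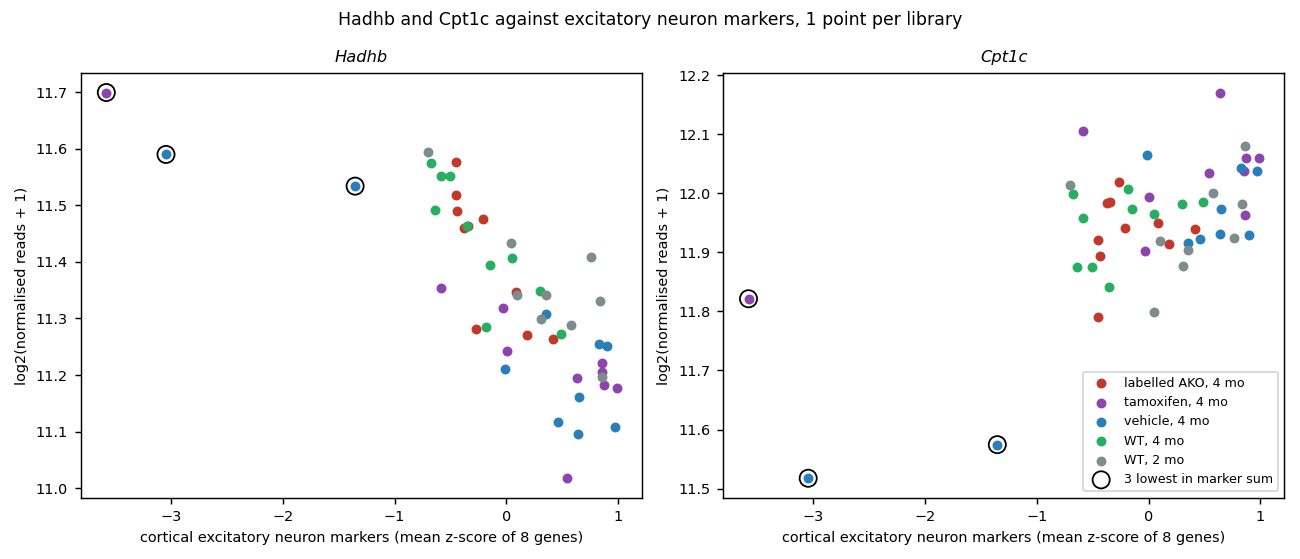
Hadhb and Cpt1c, log2(normalised reads + 1), against the mean z-score of 8 cortical excitatory neuron markers, 1 point per library, coloured by group; rings mark the 3 libraries lowest in the marker sum. Hadhb falls along the whole range, with r between -0.92 and -0.80 within each group, while the low values of Cpt1c are those of 2 ringed libraries.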

How the data were processed

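The deposited file is 1 table of log2 values (24495 genes). For aligner, counter, build and normalization: not given in the sources used here. Per the labels' protocols, libraries were made with a stranded mRNA kit. Tested on the values, each deposited value is log2 of reads divided by a size factor, plus 1 (99.92% to 100.00% of low values per library within 0.1 of a whole read; 7 genes without whole reads were left out, and 27 symbols turned into dates were restored). A value column that matched no sample was not used (1). On this scale folds of genes with few reads are understated.

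The main test was limma 3.58.1 in R 4.3.3 (trend, robust), two-sided, on the deposited log2 values of the 2 groups compared, with Benjamini-Hochberg adjustment over all genes that reached 10 reads, scaled to the median library, in at least n libraries (n, size of the smaller group) and summed to 15 or more. The design assumed this unit, and no quasi-likelihood count model was run. The limma-voom alternative used the whole reads recovered from the deposited values. Libraries are replicates by title, and p-values measure their spread, which may be technical. The title numbers shared by the libraries labelled AKO and WT (5) did not pair them. Correlations used 100000 permutations within groups, so the smallest p they can give is 1e-05 (scipy 1.17.1). The limma step was tested on simulated data. Each of the 10 genes had 118 reads or more in every library.

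Genes and lists were chosen with earlier results of these data known, and 1 pathway gene is not reported here. All 10 genes were named; of pathway lists, those past the threshold, at most 5 a list by smallest p; of markers, those past the threshold, where a count of them is short. Alternatives were other pseudocounts, filters, scaling, limma-voom, all libraries in 1 model, marker covariates and libraries left out.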

Additional observations from a re-analysis of the deposited data

Results flagged for a closer look

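A library lay far from the others of its group, by Dixon's test at 95%, in 3 of the 50 sets of gene and group tested, where chance flags about 1 in 20. Hadhb in tamoxifen replicate 9 was the highest of its group at 11.70, with the next at 11.35. Acadm in vehicle replicate 3 was the highest at 11.10, with the next at 10.78. Both are among the 3 libraries lowest in excitatory neuron markers and highest in olfactory bulb markers. Cpt1a in replicate 6 of the libraries labelled AKO was the lowest at 10.19, with the next at 10.38.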

How the results depend on the processing

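For single genes among the 10, 1140 of 1250 refits kept direction and side of the threshold, 90 changed the sign of a value that passed in neither fit, 18 gained a call, 2 lost one (Acadm in WT at 4 against 2 months, with the astrocyte or the excitatory neuron covariate) and 0 reversed a call. Libraries labelled AKO against WT gave 0 of the 10 genes in every fit and 120 genes in all. That count was 50 with all 49 libraries in 1 model, 281 with the astrocyte, 26 with the myelin and 226 with the excitatory neuron covariate, 62 without the libraries labelled AKO numbered 14 and 19, and 62 to 206 with 1 library left out (lowest without AKO replicate 8, highest without AKO replicate 15; 73 to 78 without AKO replicate 6 or 13 or WT replicate 14 or 21). With a replicate block on the 5 shared title numbers, 12 genes and 0 of the 10 were called; same-numbered libraries had correlations of -0.36 to 0.16 and 1 of 5 correlated best with its own number, so the numbers do not pair the libraries. WT at 4 against 2 months gave 1330 genes: 875 with all 49 libraries, 2 with the astrocyte, 253 with the myelin and 43 with the excitatory neuron covariate, and 772 to 2846 with 1 library left out (highest without WT 2-month replicate 37; 772 to 816 without WT 4-month replicate 12 or WT 2-month replicate 32, 33, 34 or 35). Of the 10 genes 1 was called, 0 with the astrocyte or excitatory neuron covariate and 1 to 2 with 1 library left out. Vehicle against WT gave 938 genes: 3 with the myelin and 2510 with the excitatory neuron covariate, 2752 without vehicle replicates 1 and 3, and 651 to 1494 with 1 library left out (highest without vehicle replicate 3). Of the 10 genes 0 were called, 1 with a filter at 50 reads on average, TMM scaling or limma-voom (Hadha each time), 2 with the excitatory neuron covariate, 3 without vehicle replicates 1 and 3, and 0 to 3 with 1 library left out (3 without vehicle replicate 3, 2 without vehicle replicate 1, 1 without vehicle replicate 16 or WT replicate 22). Tamoxifen against vehicle gave 0 genes in every fit. Positive pairs without Cpt1c numbered 35 of 36 without group centring, and negative pairs with Cpt1c 9 of 9. The excitatory neuron covariate and the leaving out of the 3 libraries were chosen after seeing the data. A quasi-likelihood count test was planned and not run, since the deposited unit is log2. The causes of these differences were not tested.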
